A study of Mus musculus with 16 samples.

Results

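The transcripts described here are 32 macrophage marker genes, listed by name and read from the count table of mouse left ventricle. They make up 32 of the 53764 genes in the table, and all 32 passed the filter on low counts that left 15841 genes for testing. The names were grouped by role into receptors for growth factor and chemokines (Csf1r, Ccr2, Cx3cr1), genes of most macrophages or of myeloid cells in general (Adgre1, Cd68, Itgam, Cd14, Aif1, Lyz2, Ctss, Laptm5), the complement C1q chains (C1qa, C1qb, C1qc), Fc receptors and receptors that signal through ITAM adaptors (Fcgr1, Fcgr3, Fcer1g, Tyrobp, Trem2), surface receptors of resident macrophages (Mrc1, Cd163, Lyve1, Stab1, Folr2, Timd4, Mertk, Cd209f, Clec10a) and other resident macrophage genes (F13a1, Pf4, Cbr2, Ms4a7).

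The heart holds resident macrophages, many of them seeded before birth and kept up by local division, which clear dying cells, debris and mitochondria shed by cardiomyocytes. Survival of macrophages depends on the growth factor receptor encoded by Csf1r, resident cells are known for Lyve1, Timd4 and Folr2, and cells that descend from blood monocytes are known for the chemokine receptor Ccr2. In bulk tissue these genes stand for a small share of the RNA, and fewer cells of a type cannot be told apart from less RNA per cell.

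RNA came from 16 male C57BL/6J mice that were 8 weeks old when a diet period of 4 months began. A low-fat control diet (CD) or a diet high in fat and sucrose (HFHS) was eaten freely, either plain or containing ertugliflozin (0.5 mg per g of feed), a drug that blocks SGLT2, the carrier that takes up glucose in the kidney. The 4 groups of 4 libraries are called CD untreated, CD ertugliflozin, HFHS untreated and HFHS ertugliflozin. The whole ventricle tissue was powdered, so every cell type of the wall is included, and each library is 1 animal by its label. Each library held 14637669 to 21452212 counts. Ventricular cardiomyocyte markers summed to between 86184 and 103997 CPM (counts scaled to a common library total of 1000000), as the labelled tissue calls for. T and NK cell markers summed to 2.56 to 5.84 CPM, neutrophil markers to 2.93 to 7.29 CPM, and the neutrophil marker Ly6g was at 0 counts in all 16 libraries. Mast cell markers summed to 6.92 to 19.5 CPM, B cell markers to 11.7 to 23.5 CPM and dendritic cell markers to 30.7 to 41.2 CPM. Monocyte markers summed to 184 to 351 CPM, in a list that holds Fn1, Vcan, Ace and Nr4a1, genes that other heart cells express too.

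Levels of different genes were set side by side per exon length, as CPM divided by kilobases of exons, averaged over the 16 libraries (± SD). The lysozyme gene Lyz2 was highest at 108 ± 22.1. C1qa and C1qb, which encode chains of the complement recognition protein C1q, followed at 43.6 ± 6.95 and 42.2 ± 7.54 and differed by less than their spread. C1qc, the third chain, was at 22.6, the lysosomal protease gene Ctss at 16.1, and the carbonyl reductase gene Cbr2, known from resident tissue macrophages, at 15.3. Csf1r was at 10.5, the scavenger receptor genes Stab1 and Mrc1 at 11.4 and 9.07, and Adgre1, which encodes the F4/80 antigen, at 6.95. At the low end stood the monocyte chemokine receptor gene Ccr2 (1.05), the integrin gene Itgam (0.473) and the lipid-sensing receptor gene Trem2 (0.433). Library counts of the members ran from 11 for Cd209f to 4018 for Lyz2. Across all 16 libraries the steadiest members were Mertk, the receptor that engulfs dying cells, with a coefficient of variation (CV) of 7.94%, Stab1 with 8.43% and Csf1r with 8.78%. Cd209f (33.5%), Ccr2 (32.4%) and Cx3cr1 (32.2%) varied most.

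**Figure D1:**
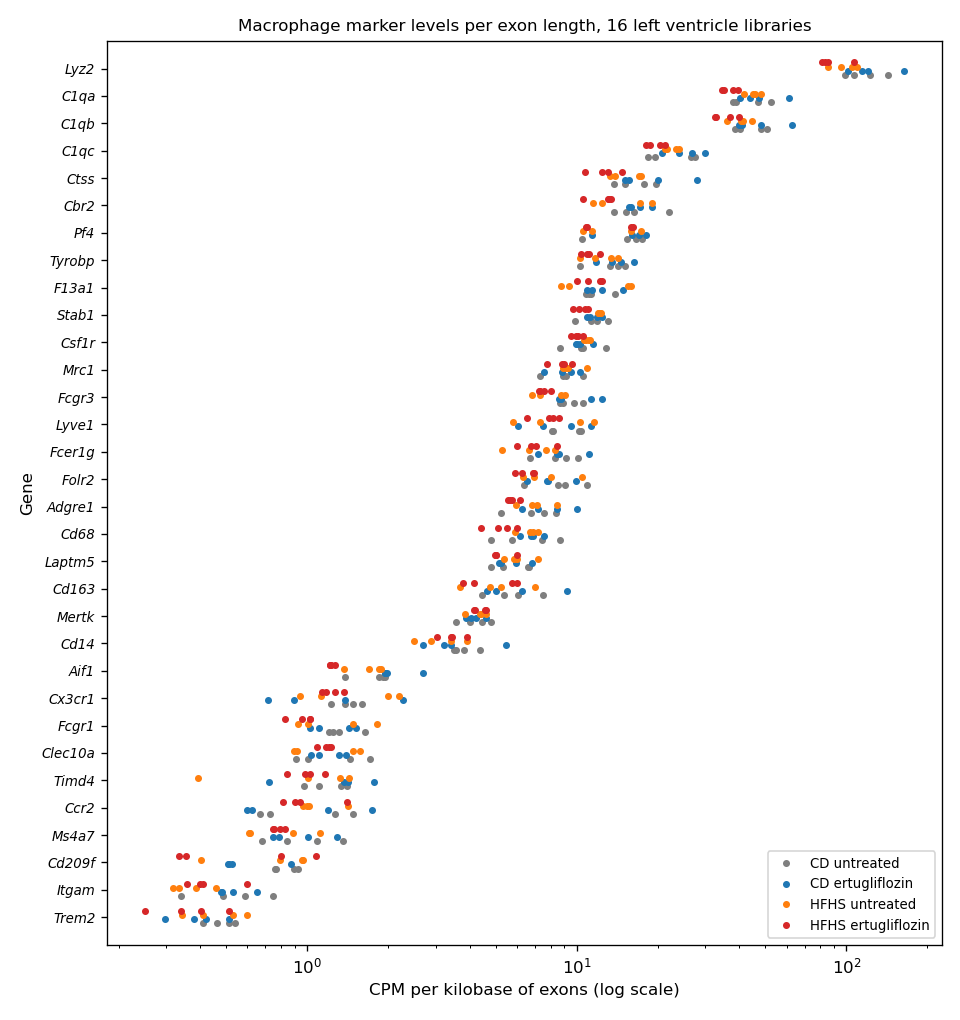
Level of each of the 32 macrophage marker genes in CPM per kilobase of exons (log axis), 1 point per library, coloured by group, with genes ordered by their mean. Lyz2 lies highest (mean 108) and Trem2 lowest (mean 0.433).

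Several members share sequence with other genes, and how reads in such places were assigned is not given in the sources used here. Exons of Itgam overlap those of Gm49368 on the same strand over 68.7% of their length, with 0 to 2 counts given to Gm49368. Exons of Folr2 overlap Gm10602 on the opposite strand over 63.1% of their length (58 to 89 counts), and exons of Csf1r overlap Hmgxb3 on the opposite strand over 15.1% (424 to 687 counts). Lyz2, the Fcgr genes, Ccr2, Clec10a and Cd209f have close paralogs whose reads can be split between copies. Lyve1, Stab1 and Mrc1 are also expressed by lymphatic or other endothelium, and Pf4 by platelets.

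Promoter sequence was read for the members, because PU.1, the myeloid transcription factor encoded by Spi1, binds DNA around a GAGGAA core. A RefSeq promoter (GRCm38.p6) was matched for 25 of the 32 members. Within the 250 bases before the start site, GAGGAA on either strand (read as TTCCTC on the other) was found for 15 of the 25 members, against 25.9% of all 27025 genes with windows of that length (23.3% of the 32851 windows). The 15 were Aif1, C1qb, C1qc, Cbr2, Cd68, Ctss, F13a1, Fcgr1, Fcgr3, Itgam, Laptm5, Mrc1, Pf4, Stab1 and Trem2. The STAT-type palindrome TTCNNNGAA, a match of which can overlap a match of the core, was found for 1 of the 25 members (Fcgr1), against 8.13% of genes (7.02% of windows). The windows of 5 members are shown in the direction of transcription with the core in capitals: Aif1 at chr17:35176053-35176302, Fcgr3 at chr1:171059404-171059653 (the first of its start sites listed), C1qb at chr4:136886201-136886450, C1qc at chr4:136892915-136893164 and Lyz2 at chr10:117282273-117282522, all on the minus strand. Lyz2 is shown as a gene of the same diet result whose window does not hold these letters.
Aif1: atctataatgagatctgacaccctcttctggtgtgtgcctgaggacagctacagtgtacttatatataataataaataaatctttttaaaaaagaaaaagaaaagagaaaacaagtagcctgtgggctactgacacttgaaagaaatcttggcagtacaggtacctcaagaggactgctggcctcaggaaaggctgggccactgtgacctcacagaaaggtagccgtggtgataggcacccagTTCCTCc
Fcgr3: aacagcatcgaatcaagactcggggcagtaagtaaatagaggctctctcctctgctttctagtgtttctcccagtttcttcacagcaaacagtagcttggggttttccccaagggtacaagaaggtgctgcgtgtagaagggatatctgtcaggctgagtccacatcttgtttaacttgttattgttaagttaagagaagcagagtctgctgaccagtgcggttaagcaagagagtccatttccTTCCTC
C1qb: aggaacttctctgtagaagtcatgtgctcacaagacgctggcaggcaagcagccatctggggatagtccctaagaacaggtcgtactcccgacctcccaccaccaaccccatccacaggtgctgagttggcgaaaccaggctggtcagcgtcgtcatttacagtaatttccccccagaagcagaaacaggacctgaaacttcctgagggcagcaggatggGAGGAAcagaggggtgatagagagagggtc
C1qc: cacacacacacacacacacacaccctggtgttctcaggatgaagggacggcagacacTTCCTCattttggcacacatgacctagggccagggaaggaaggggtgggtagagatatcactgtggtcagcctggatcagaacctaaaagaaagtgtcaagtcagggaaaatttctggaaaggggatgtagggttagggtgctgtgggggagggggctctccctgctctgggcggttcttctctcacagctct
Lyz2: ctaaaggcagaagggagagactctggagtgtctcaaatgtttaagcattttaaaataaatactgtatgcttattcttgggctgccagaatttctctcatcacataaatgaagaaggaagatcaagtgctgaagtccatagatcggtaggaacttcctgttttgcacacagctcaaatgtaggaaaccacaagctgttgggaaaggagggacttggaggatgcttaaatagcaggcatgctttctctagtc
In the Fcgr3 window shown the core forms the last 6 bases before the start, and in Aif1 1 base lies between the core and the start. These are RefSeq starts, and both cores lie inside the gene spans given below for Fcgr3 and Aif1. At the other Fcgr3 start site listed, further bases lie between the core and the start. These matches describe letters in a window and were not measured as binding.

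Libraries differed in their macrophage transcripts within groups, before any comparison between groups. CD ertugliflozin library 3 had the highest level of the 16 for 15 of the 32 members, and CD untreated library 2 for 9. HFHS ertugliflozin library 2 had the lowest level for 8 members, CD untreated library 4 for 6 and HFHS untreated library 2 for 5. Against each gene's median over the 16 libraries, 30 of 32 members lay above it in CD untreated library 2 and 29 in CD ertugliflozin library 3, but 2 in each of HFHS ertugliflozin libraries 1 and 2. CD untreated libraries 2 and 3 also stood apart in tissue makeup: their heart valve and cartilage markers summed to 255 and 219 CPM, against 20.9 to 95.0 CPM in the other 14 libraries. Atrial cardiomyocyte markers varied most in CD untreated as well, at 164 to 1065 CPM, against 138 to 257 CPM over the other groups. Counts and medians of comparisons that use CD untreated are given with and without its libraries 2 and 3. This alternative was chosen after seeing the data and leaves libraries 1 and 4 in the group. Libraries 2 and 3 were also the 2 highest of CD untreated for 19 of the 32 members, with summed CPM of 1038 and 912. Leaving them out thus lowers the control-diet level of these members by construction, and the shifts it gives are no independent check. Summed over the 32 members, CPM was 772 to 1038 in CD untreated, 820 to 1103 in CD ertugliflozin, 783 to 933 in HFHS untreated and 712 to 834 in HFHS ertugliflozin, so the groups overlapped.

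**Figure D2:**
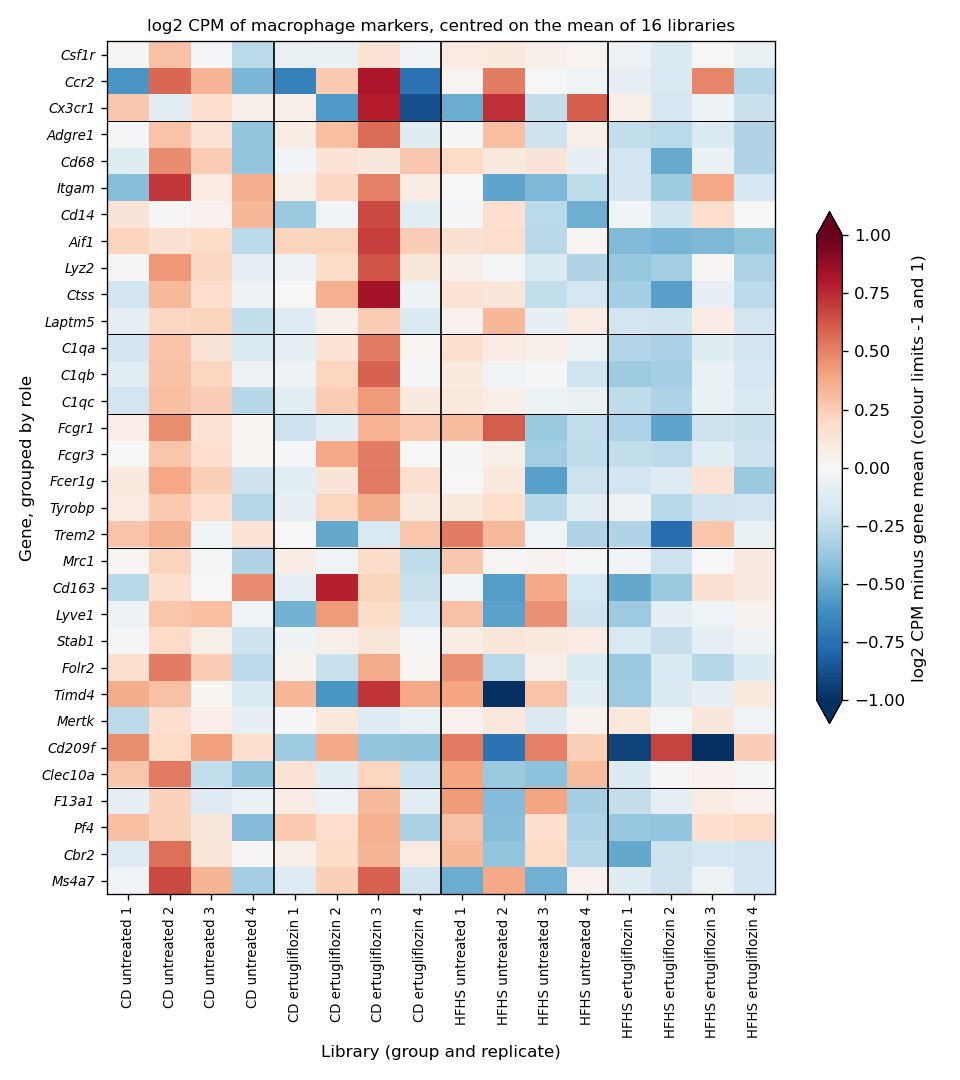
log2 CPM of the 32 members in each of the 16 libraries after subtracting each gene's mean; rows are grouped by role, and red and blue mark levels above and below the mean. CD ertugliflozin library 3 and CD untreated library 2 are red for most genes, and HFHS ertugliflozin libraries 1 and 2 are blue for most.

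Of the 4 comparisons between pairs of groups, 1 gave calls among the members, that of the diets in drug-treated animals. Comparing HFHS ertugliflozin with CD ertugliflozin, Aif1 and Fcgr3 fell and none of the 32 members rose at an adjusted p under 0.05. Of all genes tested, 3.69% passed in either direction, 1.53% as lower and 2.15% as higher. By sign, 30 of the 32 members were lower, against 51.4% of all genes, with a median log2 fold change of -0.30 against -0.0054 for all genes. An unadjusted p under 0.05 was reached by 12 of 32, against 18.5% of all genes. For 9 members every HFHS ertugliflozin library lay below every CD ertugliflozin library (Adgre1, Cd68, Aif1, Ctss, C1qa, C1qb, Fcgr1, Fcgr3 and Cbr2), against 6.38% of all genes, and for 0 members was the order the reverse (6.79% of all genes). Without CD ertugliflozin library 3, which was high for many members, 1 member was called, where 2.24% of all genes passed. In that fit 9 members reached an unadjusted p under 0.05, 25 were lower and the median was -0.18.

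Among the genes of most macrophages, 1 of 8 fell and 8 of 8 were lower, with a median log2 fold change of -0.42. Aif1, which encodes the actin-bundling protein IBA1 (chr17:35170991-35176068, GRCm38), was at 2.97, 2.98, 4.13 and 3.03 CPM in CD ertugliflozin and at 1.88, 1.86, 1.87 and 1.94 CPM in HFHS ertugliflozin. Every treated HFHS library was below every other library of the study, and CD ertugliflozin library 3 was the highest. It fell by 42.4%, a log2 fold change of -0.80 ± 0.16 (SE, adjusted p = 0.0085), and the call held without each of the 8 libraries in turn. The 4 treated HFHS values had a CV of 1.93%, narrower than the 17.1% that counting error alone gives at their mean of 34.2 reads, so their closeness is not a measure of biological spread.

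The other genes of this role did not pass by edgeR, while DESeq2 also called Ctss, Adgre1 and Lyz2 (adjusted p of 0.00878, 0.0342 and 0.0126). Ctss, a lysosomal cysteine protease gene, was at 21.2, 27.2, 37.8 and 20.5 CPM in CD ertugliflozin and at 16.8, 14.6, 20.1 and 17.8 CPM in HFHS ertugliflozin (log2 fold change -0.62 ± 0.18, adjusted p = 0.0711). Adgre1 was at 23.3, 27.3, 32.5 and 20.3 CPM against 18.6, 18.3, 20.0 and 18.0 CPM (-0.46 ± 0.15, adjusted p = 0.0979). For both genes the groups were apart by less than 1 CPM, and CD ertugliflozin library 3 was the highest. Lyz2 was at 134, 158, 215 and 150.0 CPM against 107, 109, 140.2 and 113 CPM (-0.49 ± 0.15, adjusted p = 0.0906), and its groups overlapped through HFHS ertugliflozin library 3. Cd68, a lysosomal membrane glycoprotein gene, was at 7.72, 8.67, 8.52 and 9.50 CPM against 6.90, 5.57, 7.53 and 6.40 CPM (-0.38 ± 0.15, adjusted p = 0.160). Cd68 did not share the high value in CD ertugliflozin library 3, and library 4 was its highest in that group. The lipopolysaccharide co-receptor gene Cd14 (-0.10 ± 0.18), the lysosomal membrane protein gene Laptm5 (-0.14 ± 0.12) and Itgam (-0.28 ± 0.22) had smaller differences.

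All 3 C1q chains were lower and 0 of 3 passed by edgeR, while DESeq2 called C1qa and C1qb (adjusted p of 0.0309 and 0.0217). C1qa was at 41.8, 49.4, 64.0 and 45.7 CPM in CD ertugliflozin and at 36.7, 36.1, 41.3 and 39.6 CPM in HFHS ertugliflozin (log2 fold change -0.39 ± 0.12, adjusted p = 0.0862). C1qb was at 43.7, 52.5, 68.2 and 44.6 CPM against 35.5, 35.7, 43.4 and 40.3 CPM (-0.43 ± 0.13, adjusted p = 0.0831). In both, the lowest control-diet library was above the highest HFHS library by under 1 CPM. C1qc was at 39.9, 51.5, 57.9 and 46.3 CPM against 36.2, 34.9, 41.1 and 39.2 CPM, with overlap (-0.37 ± 0.13, adjusted p = 0.127). These chain genes lie next to each other on chromosome 4 and their protein products assemble into 1 complex.

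Among Fc receptors and ITAM partners 1 of 5 fell and 5 of 5 were lower, with a median log2 fold change of -0.33. Fcgr3, a low-affinity receptor for IgG (chr1:171051174-171064935, GRCm38), was at 14.97, 19.6, 21.5 and 15.2 CPM in CD ertugliflozin and at 12.7, 12.6, 13.9 and 13.1 CPM in HFHS ertugliflozin. The groups did not overlap, and CD ertugliflozin libraries 2 and 3 were the high ones. It fell by 26.6%, a log2 fold change of -0.45 ± 0.12 (adjusted p = 0.0375). The call was lost without CD ertugliflozin library 2 or 3 or without any 1 of the 4 HFHS ertugliflozin libraries, with adjusted p up to 0.131. Fcgr1, the high-affinity IgG receptor gene, was at 2.66, 2.87, 3.91 and 3.69 CPM against 2.49, 2.14, 2.65 and 2.64 CPM, groups that only just failed to meet (-0.41 ± 0.20, adjusted p = 0.286). The signalling partners Tyrobp (-0.33 ± 0.13) and Fcer1g (-0.32 ± 0.16) were near these values, and Trem2, which signals through Tyrobp, was at -0.11 ± 0.23.

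Of the 9 resident macrophage receptors 0 were called and 7 were lower, with a median log2 fold change of -0.14. The scavenger receptors for haemoglobin complexes and for hyaluronan, Cd163 and Lyve1, had -0.36 ± 0.26 and -0.14 ± 0.22. The phosphatidylserine receptor gene Timd4 had -0.41 ± 0.29, the folate receptor gene Folr2 -0.30 ± 0.17 and Stab1 -0.16 ± 0.07. The mannose receptor gene Mrc1 (-0.04 ± 0.11) and the C-type lectin gene Clec10a (-0.05 ± 0.21) were close to 0, and Mertk (0.07 ± 0.09) and the lectin gene Cd209f (0.07 ± 0.34) were the 2 members with a positive sign. Of the other resident genes, Cbr2 was at 20.8, 22.7, 25.3 and 21.1 CPM in CD ertugliflozin and at 14.0, 17.3, 17.7 and 17.5 CPM in HFHS ertugliflozin, without overlap (-0.44 ± 0.16, adjusted p = 0.156). Cbr2 was called by edgeR when these groups alone were fitted. The membrane gene Ms4a7 had -0.30 ± 0.23, the platelet factor gene Pf4 -0.22 ± 0.20 and F13a1, which encodes the A chain of coagulation factor XIII, -0.12 ± 0.18.

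Of the 6 roles, the growth factor and chemokine receptors had the median closest to 0, at -0.06, with 0 of 3 called. Csf1r was at 60.2 ± 4.24 CPM (SD, n = 4) in CD ertugliflozin and 57.8 ± 2.34 CPM in HFHS ertugliflozin, a log2 fold change of -0.06 ± 0.08. Ccr2 was at 7.04 ± 3.68 against 6.86 ± 1.77 CPM and the fractalkine receptor gene Cx3cr1 at 5.92 ± 3.14 against 5.58 ± 0.486 CPM. The wide spread of Ccr2 and Cx3cr1 in CD ertugliflozin left standard errors of 0.35 and 0.32, so differences of moderate size in these receptors were not detectable with 4 animals a group.

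**Figure D3:**
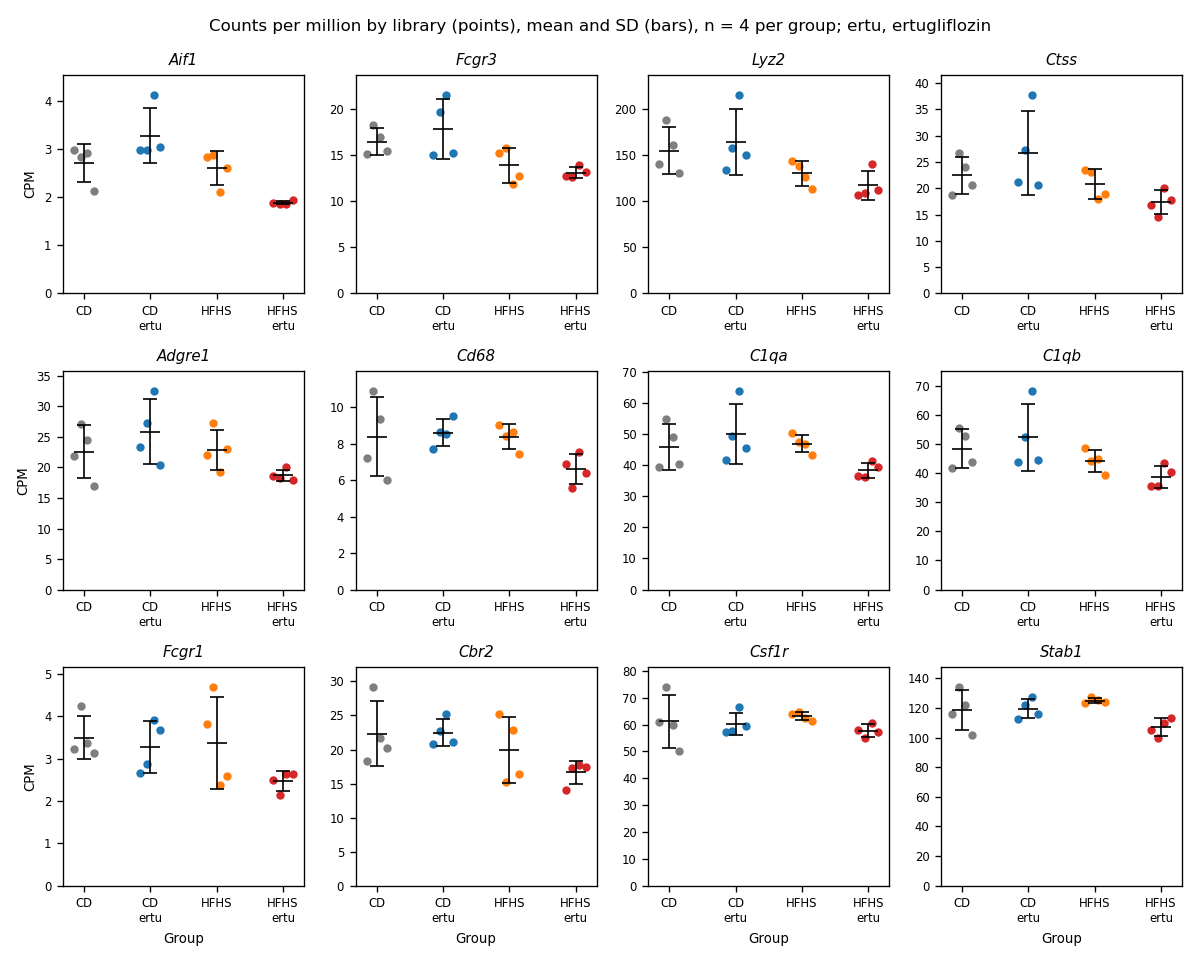
CPM of 12 members in each library by group (points), with the mean and SD as bars, n = 4 per group, and axes that start at 0. In the Aif1 panel the 4 HFHS ertugliflozin libraries sit between 1.86 and 1.94 CPM, below the other 12 libraries.

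Other lists also differed between these groups, and their part in the difference was not tested. Of 25 interferon-inducible genes, 19 fell and 25 were lower, with a median log2 fold change of -0.77, and their summed level was 588 to 730 CPM in CD ertugliflozin against 322 to 377 CPM in HFHS ertugliflozin. The summed level was 442 to 530 CPM in CD untreated, so the treated control group was the high one. All 7 tested genes of class II antigen presentation were lower and 1 passed (H2-DMa, -0.94 ± 0.24, adjusted p = 0.0337). Of 12 pan-leukocyte genes 0 were called and 10 were lower (median -0.25), and 8 of 8 erythroid genes were lower without a call (median -0.34). Cardiomyocyte transcripts were also lower, with 6 of 10 ventricular markers called and a median of -0.19, whereas 10 of 13 fibroblast markers were higher (1 called, median 0.25). Ventricular markers were lower without the drug too, in 8 of 10 (1 called, median -0.13). In that comparison the 32 members had a median of -0.07.

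Without the drug, the diet comparison gave no call among the 32 members (HFHS untreated against CD untreated), where 2.06% of all genes passed. DESeq2 also called 0. An unadjusted edgeR p under 0.05 was found for 1 member, against 16.5% of all genes, and 22 of 32 were lower (50.4% of all genes), with a median log2 fold change of -0.07. In 0 members were the groups apart, against 4.22% of genes apart as lower and 4.11% as higher. The 1 member was Itgam, at 1.71, 3.76, 2.45 and 2.96 CPM in CD untreated and 2.31, 1.6, 1.68 and 1.94 CPM in HFHS untreated (-0.54 ± 0.23, adjusted p = 0.232). Its groups overlapped through CD untreated library 1. Aif1 was at 2.98, 2.84, 2.91 and 2.12 CPM against 2.84, 2.88, 2.11 and 2.603 CPM (-0.05 ± 0.16), and Fcgr3 at 15.03, 18.3, 17.0 and 15.4 CPM against 15.2, 15.7, 11.9 and 12.7 CPM (-0.24 ± 0.12, adjusted p = 0.313). Aif1 thus covered the same range in both groups, and Fcgr3 was lower in HFHS untreated libraries 3 and 4. The C1q chains had a median of -0.03, Fc receptors and partners -0.08, pan-macrophage genes -0.08, resident receptors -0.09 and other resident genes -0.15, and the growth factor and chemokine receptors had 0.09. Without CD untreated libraries 2 and 3, which were high for many members, the median of the 32 turned to 0.09. In that fit 10 of 32 were lower, 0 were called and 5 reached an unadjusted p under 0.05. Leaving out single libraries gave 0 calls, 0 to 3 members at an unadjusted p under 0.05 and medians from -0.16 (without HFHS untreated library 1) to -0.018 (without CD untreated library 2).

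**Figure D4:**
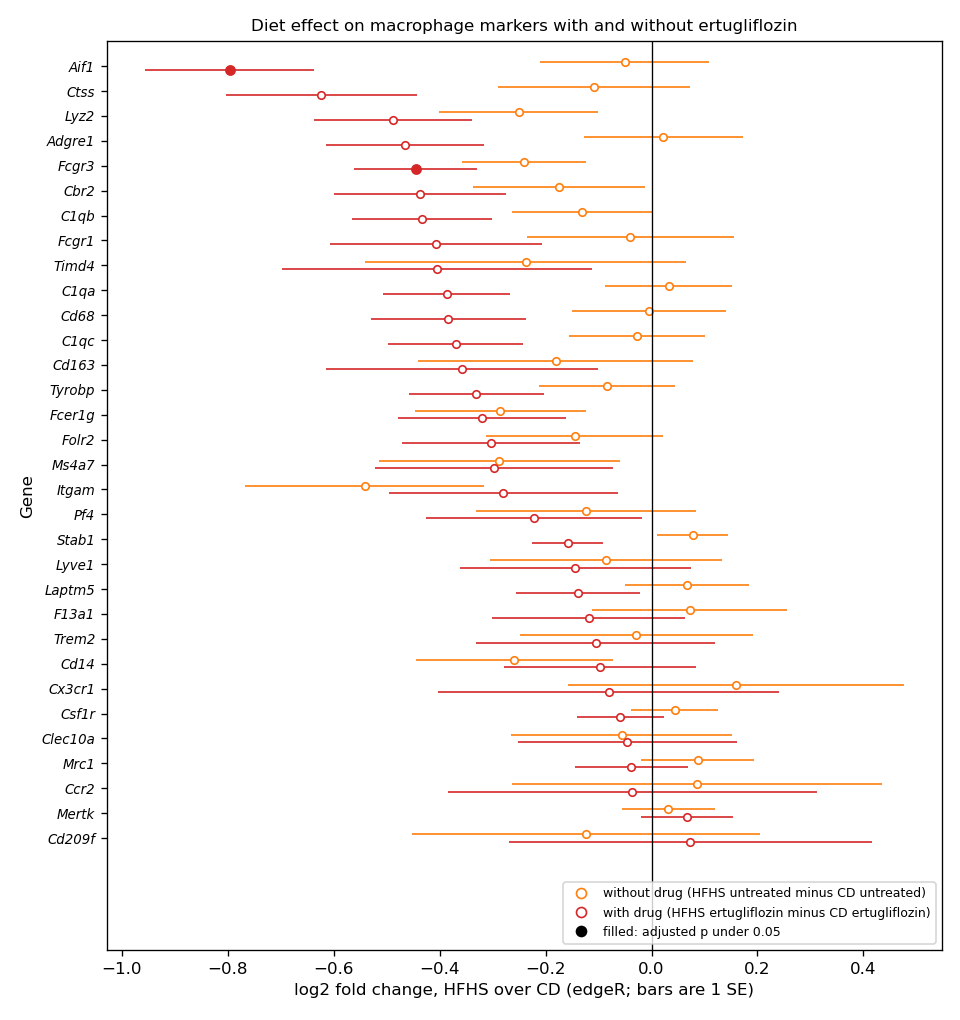
log2 fold change of HFHS over CD (edgeR, bars are 1 SE) for the 32 members, without the drug (orange) and with it (red), ordered by the value with the drug; filled points passed an adjusted p of 0.05. Aif1 (-0.80) and Fcgr3 (-0.45) are filled with the drug, and no point is filled without it.

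Averaged over both drug arms, 3 members fell with the HFHS diet and 0 rose, where 11.6% of all genes passed in either direction, 5.01% as lower and 6.59% as higher. Fcgr3 had a log2 fold change of -0.34 ± 0.08 (adjusted p = 0.0107), Aif1 -0.42 ± 0.11 (adjusted p = 0.0197) and Lyz2 -0.37 ± 0.11 (adjusted p = 0.037). Aif1 averaged 2.71 CPM in CD untreated and 2.61 CPM in HFHS untreated, against 3.28 CPM in CD ertugliflozin and 1.88 CPM in HFHS ertugliflozin. Its averaged change thus came mostly from the treated arm. Lyz2 was at 140.5, 188, 160.5 and 130.3 CPM in CD untreated and at 144, 138, 126 and 113 CPM in HFHS untreated, which overlap. By sign 28 of 32 were lower, against 52.3% of all genes (median -0.20, against -0.0076 for all genes), and 10 reached an unadjusted p under 0.05, against 26.5% of all genes. Without CD untreated libraries 2 and 3, 0 of the 32 passed, with adjusted p of 0.0624 for Fcgr3, 0.0908 for Aif1 and 0.143 for Lyz2, and the median was -0.10. The calls of Fcgr3 and Aif1 held without each of the 16 libraries in turn, while that of Lyz2 held in 7 of the 16.

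Ertugliflozin on the control diet changed none of the 32 members by edgeR or DESeq2, where 0.0189% of all genes passed. No member reached an unadjusted p under 0.05, against 6.17% of all genes, and 14 of 32 were lower (48.3% of all genes, median 0.011). In 0 members were the groups apart, against 1.29% of genes apart as lower and 1.78% as higher. Aif1 had the highest value at 0.27 ± 0.15 and Cd209f the lowest at -0.47 ± 0.33. Without CD untreated libraries 2 and 3, 0 were called, 4 reached an unadjusted p under 0.05, 4 were lower and the median was 0.18. Leaving out single libraries gave 0 calls each time and medians from -0.059 (without CD ertugliflozin library 3) to 0.13 (without CD untreated library 2), so the sign of the median turned with 1 library. In the same comparison 3 of 25 interferon-inducible genes rose (Iigp1, Tgtp2 and Igtp) and 25 of 25 were higher, with a median log2 fold change of 0.48, against 0.13 for the 12 pan-leukocyte genes.

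On the HFHS diet the drug gave 0 calls among the members, and 0% of all genes passed by edgeR. DESeq2 called 0 as well. By sign 28 of 32 were lower (49.8% of all genes), with a median of -0.16, and 5 had an unadjusted p under 0.05 (4.02% of all genes). For 4 members the treated libraries lay below the untreated ones without overlap (Csf1r, Aif1, C1qa and Stab1), against 1.54% of all genes, and 0 lay above without overlap (1.31% of all genes). Stab1, a clearance receptor also found on endothelium, was at 123, 127, 125 and 124 CPM untreated and 105, 99.5, 110.1 and 113 CPM treated (-0.22 ± 0.07, unadjusted p = 0.0034). The untreated HFHS libraries were within 4 CPM of each other. Csf1r was at 64.0, 64.6, 62.5 and 61.5 CPM against 58.1, 55.0, 60.7 and 57.3 CPM (-0.13 ± 0.08), a gap of under 1 CPM. C1qa was at 50.3, 47.5, 46.8 and 43.3 CPM untreated, with its treated values given above (-0.29 ± 0.12), and Aif1 had -0.47 ± 0.17. Cd68 (-0.34 ± 0.15) and Fcgr1 (-0.46 ± 0.20) completed the 5. The adjusted p was 1 for each of the 32. Leaving out single libraries gave 0 calls each time, 2 to 7 members at an unadjusted p under 0.05 (2 without HFHS untreated library 1 or HFHS ertugliflozin library 2, 3 without HFHS ertugliflozin library 1) and medians from -0.12 to -0.22. A fit of these groups alone gave 0 calls and 11 members at an unadjusted p under 0.05. In this comparison 24 of 25 interferon-inducible genes were lower (0 called, median -0.31), as were 15 of 15 endothelial markers (0 called, median -0.12), and their part in the difference was not tested.

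Whether the diet effect differed with and without the drug was tested as an interaction. It passed for 0 of the 32 members by edgeR and by DESeq2, where 0.0189% of all genes passed by edgeR. An unadjusted p under 0.05 was found for 4 members, against 4.27% of all genes, and 27 of 32 had a negative sign (51.2% of all genes), with a median of -0.18. The 4 were Aif1 (-0.75 ± 0.23, unadjusted p = 0.0039, adjusted p = 0.932), Stab1 (-0.24 ± 0.09), C1qa (-0.42 ± 0.17) and Adgre1 (-0.49 ± 0.21). These numbers moved with single libraries: without CD ertugliflozin library 3, 1 member reached an unadjusted p under 0.05, 22 were negative and the median was -0.083, and without CD untreated library 2 the unadjusted count was 8 and the median -0.26. It was 2 without CD untreated library 1 or 4 or HFHS ertugliflozin library 2. Without CD untreated libraries 2 and 3 together, 11 reached an unadjusted p under 0.05, 29 were negative and the median was -0.34. The adjusted test passed for 0 members in each of these. The calls for Aif1 and Fcgr3 with the drug and their absence without it were thus not shown to differ. The drug effect averaged over both diets gave 0 calls by edgeR and DESeq2 (0% of all genes by edgeR), with 1 member at an unadjusted p under 0.05 (Stab1, -0.11 ± 0.05), against 5.57% of all genes. By sign 24 of 32 were lower (50.1% of all genes), with a median of -0.056. Without CD untreated libraries 2 and 3, 0 were called, 0 reached an unadjusted p under 0.05, 13 were lower and the median was 0.017. Leaving out single libraries gave 0 calls each time, 0 to 5 members at an unadjusted p under 0.05 and medians from -0.12 (without CD ertugliflozin library 3) to -0.0033 (without CD untreated library 2).

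Within the HFHS untreated group, some members took opposite orders over the same 4 animals. This pattern was noticed after the values were seen and is given as a description. F13a1 was at 107, 59.1, 105 and 63.3 CPM in libraries 1 to 4, and its CV was 30.9% here, against 9.72% to 14.0% in the other 3 groups. Libraries 1 and 3 were high and libraries 2 and 4 low. Lyve1 was at 29.9, 16.9, 33.7 and 21.3 CPM, Cd163 at 28.6, 20.1, 38.3 and 26.0 CPM, and Timd4 at 3.10, 0.854, 2.88 and 2.18 CPM. Cbr2, Pf4 and Folr2 shared this order, with Cbr2 at 25.2, 15.2, 22.8 and 16.4 CPM. Cx3cr1 ran the other way at 4.22, 9.87, 5.05 and 9.02 CPM, as did Ms4a7 at 2.70, 4.96, 2.74 and 3.94 CPM. Libraries 1 and 3 were the 2 highest for 11 of the 32 members, and libraries 2 and 4 for 4 (Adgre1, Cx3cr1, Laptm5 and Ms4a7). The other members showed neither order: libraries 1 and 2 were the 2 highest for 14 (C1qa, C1qc, Csf1r, Lyz2, Fcgr3 and Aif1 among them), 1 and 4 for 2 (Clec10a and Itgam) and 2 and 3 for 1 (Stab1). Among the 11 with libraries 1 and 3 highest were 6 of the 9 resident receptors and 3 of the 4 other resident genes. Lymphatic endothelial markers, a list that leaves out Lyve1, summed to 187, 227, 196 and 225 CPM in the same libraries, higher in 2 and 4 where Lyve1 was lower. Libraries 1 and 3 were also the shallowest of this group, and the part of depth or of sampling in the split was not tested. A pair of highest libraries shared by many members was not particular to this group. Libraries 2 and 3 were the 2 highest for 19 of the 32 members in CD untreated and for 17 in CD ertugliflozin. In HFHS ertugliflozin libraries 3 and 4 were the 2 highest for 18.

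**Figure D5:**
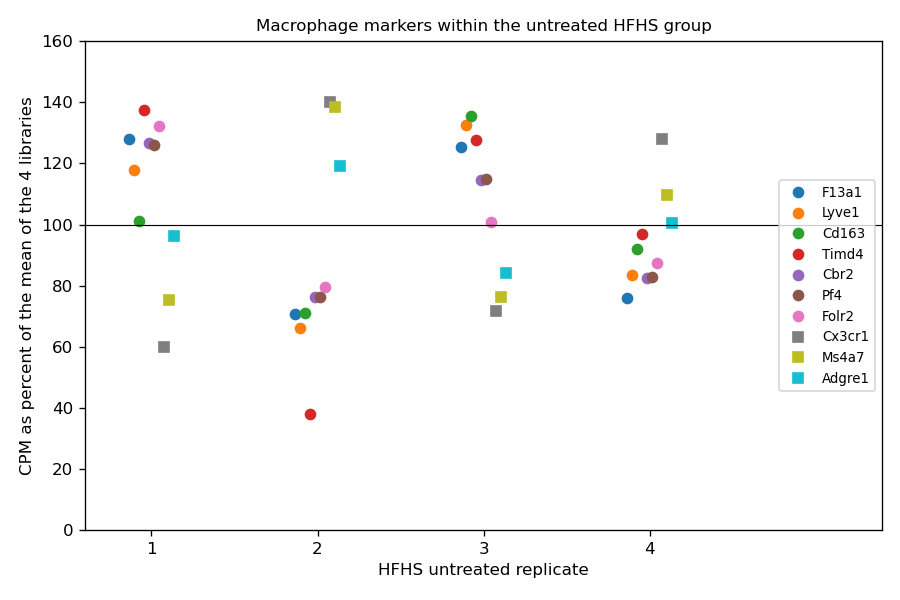
CPM of 10 members in the 4 HFHS untreated libraries as a percent of the mean of those libraries; circles are F13a1, Lyve1, Cd163, Timd4, Cbr2, Pf4 and Folr2, and squares are Cx3cr1, Ms4a7 and Adgre1. The circles lie above 100% in libraries 1 and 3 and below it in 2 and 4, and the squares the reverse.

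The spread within groups also differed in size. The median CV of the 32 members was 9.71% in HFHS ertugliflozin, against 15.9% in CD untreated, 18.6% in CD ertugliflozin and 17.8% in HFHS untreated. HFHS ertugliflozin had the smallest CV of the 4 groups for 17 of the 32 members and the largest for 2. For 9 members its CV was below what counting error alone gives, so part of the narrowness is below what 4 libraries can resolve. This held for 5 members in HFHS untreated, 2 in CD untreated and 0 in CD ertugliflozin. The CV of all genes by group was not computed, so the narrowness is not shown to be particular to these markers.

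Genes that feed, attract and equip macrophages were read from further lists. Of 13 tested growth factors and chemokines, 1 rose with the HFHS diet in each drug arm. This was Cxcl12, the ligand of Cxcr4, at 266 ± 16.9 CPM (SD, n = 4) in CD untreated, 278 ± 30.8 in CD ertugliflozin, 336 ± 16.5 in HFHS untreated and 346 ± 18.5 in HFHS ertugliflozin. Its log2 fold change was 0.33 ± 0.07 without the drug (adjusted p = 0.0179) and 0.32 ± 0.07 with it (adjusted p = 0.0152). Averaged over both arms, the fractalkine gene Cx3cl1, whose product binds the receptor encoded by Cx3cr1, also rose (0.27 ± 0.08, adjusted p = 0.0436). Csf1, which encodes the main ligand of the Csf1r product, had 0.10 without the drug and 0.044 with it and did not pass, and Il34, the other ligand gene, 0.14 and -0.021.

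Of 15 macrophage transcription factor genes 0 passed in either diet comparison (median 0.0074 without the drug and -0.12 with it). Spi1 had -0.099 and -0.20. Among 20 genes of efferocytosis and lysosomes, averaged over both arms, 3 rose (Mfge8, Grn and Psap) and 3 fell (Gas6, Apoe and Ctsl), with a median of 0.024. In that average 6.59% of all genes passed as higher and 5.01% as lower. Apoe, which carries lipid and is made by macrophages and other cells, had -0.47 ± 0.10 (adjusted p = 0.00753), and Psap, a precursor of lysosomal sphingolipid activators, 0.24 ± 0.04. Most of these genes are also expressed by cardiomyocytes, fibroblasts or endothelium. Of 9 tested genes linked to lipid-laden macrophages, Plin2, a lipid droplet coat gene that cardiomyocytes express too, rose in both arms (0.43 ± 0.06 and 0.27 ± 0.05). In the same list Cd63 fell without the drug (-0.27 ± 0.06) and Lpl fell with it (-0.29 ± 0.07). Of 9 tested cytokine and inflammasome genes 0 passed in either arm. Averaged over both arms Tgfb1, a growth factor gene that most cells of the heart express, rose (0.22 ± 0.06, adjusted p = 0.0135) and Pycard, the inflammasome adaptor gene, fell (-0.35 ± 0.08, adjusted p = 0.0112). The cytokine transcripts were scarce: Il1b had 3 to 22 counts and Tnf 6 to 18 counts per library, and Il6, with 0 to 3, was not tested.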

How the data were processed

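Left ventricular poly(A) RNA of 16 mice was read from 2 deposited tables. Per the submitters' processing notes, reads were aligned with STAR 2.6.0c to mm10 and counted with featureCounts (Subread 1.6.2), with FastQC 0.11.7 and DESeq2 1.22.1 also named; no source used here gives the annotation or the strand setting. The authors deposited raw counts per Ensembl gene and a table of regularized log2 values. Groups and replicate numbers came from the sample titles.

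From the counts, genes were filtered with filterByExpr (15841 kept), scaled by TMM and fitted over all 4 groups with edgeR 4.0.16 in R 4.3.3 (quasi-likelihood test, robust, no covariate). Benjamini-Hochberg adjustment ran over all 15841 genes, with a threshold of 0.05. The SE is the log2 fold change divided by the root of F. CPM used the TMM-scaled totals, and levels per length the union of annotated exons, which understates genes with long, rarely used exons. Errors given after ± are SE for log2 fold changes and SD for levels. Depth was 14637669 to 21452212 counts per library, so members with few counts carry the widest counting error.

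Members and lists were chosen with earlier results of these data known. All 32 members are named; library values are given for members called or without overlap between groups, and, chosen after seeing values, for C1qc, Itgam and the split within HFHS untreated. The alternatives tried were upper-quartile and RLE scaling, a filter of 1 CPM or none, DESeq2 1.42.0, limma 3.58.1 on the authors' log2 values, a replicate block, separate fits of 2 groups, and leaving out single libraries. Within groups, libraries differed beyond counting noise, so each counted as 1 replicate; where samples are not stated to be separate litters or cages, p-values measure the spread between these animals. The script was tested on simulated data with known changes.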

Additional observations from a re-analysis of the deposited data

Results flagged for a closer look

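In each group of 4 libraries, a member's highest or lowest library was marked where its gap to the nearest other library took up more of the group's range than Dixon's 95% critical value allows. Chance marks about 1 in 20 groups, and 7 of 128 were marked. In HFHS untreated, Ccr2 was at 9.60 CPM in library 2, against 6.54 to 6.86 CPM in the other 3. Aif1 was marked in both control-diet groups: in CD untreated library 4 it was low at 2.12 CPM (others 2.84 to 2.98), and in CD ertugliflozin library 3 it was high at 4.13 CPM (others 2.97 to 3.03). Cd209f was high in CD ertugliflozin library 2 at 1.73 CPM (others 1.01 to 1.04), and F13a1 was high in CD untreated library 2 at 93.2 CPM (others 72.8 to 76.3). In HFHS ertugliflozin, Laptm5 was high in library 3 at 22.7 CPM (others 18.8 to 19.1), and Cbr2 was low in library 1 at 14.0 CPM (others 17.3 to 17.7).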

How the results depend on the processing

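The counts of members called under RLE and upper-quartile scaling equalled those given above in all 7 comparisons, as they did with a filter of 1 CPM, and no scaling moved the median of all genes by over 0.1. For the diet effect with the drug, DESeq2 called 7 members (Adgre1, Aif1, Lyz2, Ctss, C1qa, C1qb and Fcgr3). It called 906 of all genes (5.72%) in place of 584 (3.69%). On the authors' regularized log2 values, limma called Aif1 and Fcgr3, where 3.62% of all genes passed. Its median was -0.099, and the cause of this smaller value was not tested. Leaving out single libraries gave 1 to 4 members: Aif1 alone without CD ertugliflozin library 2 or 3 or any HFHS ertugliflozin library, 3 without CD ertugliflozin library 1 and 4 without library 4. In those fits 1.79% to 2.93% of all genes passed. For the diet effect over both arms, DESeq2 called 5 members, where 12.9% of all genes passed. Leaving out single libraries gave 2 to 5, where 8.57% to 15.8% of all genes passed. Without CD untreated libraries 2 and 3, 0 were called, where 8.65% passed. That alternative was chosen after seeing the data and drops libraries that were high for many members. It also turned the median without the drug to 0.088. The median moved to 0.18 for the drug effect on the control diet and to -0.34 for the interaction, with 0 members called in each of these comparisons. Testing without any filter on low counts also ended the call of Lyz2 for the diet effect over both arms. Single members were followed only in the 33 member and comparison pairs that had an unadjusted p under 0.05 in the main fit. Of their 649 values, 609 kept direction and side of the threshold, 19 lost the call, 21 gained it and 0 changed sign. Pairs picked by a small p seldom change sign, and most of them were uncalled in the main fit. These counts therefore do not describe the other members.

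Whether the replicate numbers pair the animals was not settled. Deviations of same-numbered libraries had r from -0.24 to 0.313 over 24 pairs, with 6 above 0.1. Of the 16 libraries, 8 correlated best with their own number, and no chance value was computed for this count. With the replicate block, 3 members were called for the diet effect with the drug (C1qb added), 4 over both arms (C1qb added) and 0 elsewhere. With that block 3.47% of all genes passed for the diet effect with the drug and 11.3% over both arms. With separate fits of 2 groups, 3 members were called for the diet effect with the drug (Cbr2 added), where 4.68% of all genes passed. In that fit 15 members reached an unadjusted p under 0.05. The separate fits of the other pairs of groups called 0 members. Depth limits Cd209f, Trem2, Itgam and Timd4 most, whose lowest libraries held 11 to 24 counts.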
